A study of Rattus norvegicus with 15 samples.

Results

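Signals of 10 genes of endothelial identity and surface were read in rat ductus arteriosus and aorta around birth: Pecam1, Cdh5, Icam2, Selp, Tek, Tie1, Kdr, Flt1, Thbd and Vwf. The members were all probe sets of the 3 Affymetrix rat chips A, B and C whose platform annotation gave 1 gene symbol equal to one of these names. This yielded 24 probe sets (9 from A, 9 from B, 6 from C) for 10 of the 10969 named genes on the chips. A probe set is a group of short probes against 1 transcript or expressed sequence tag, and several of them can read the same gene.

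The ductus arteriosus is the fetal shunt between the pulmonary artery and the aorta, and it shuts once breathing starts. RNA came from 5 states of Rattus norvegicus: fetal ductus and fetal aorta at 19 days of gestation, taken by caesarean section from normoxic dams; oxygen ductus, from fetuses of the same gestational age whose dams had breathed 100% oxygen for 3 hours; and newborn ductus and newborn aorta, taken 3 hours after vaginal delivery. The aorta comprised the arch and the thoracic part. Vessels were dissected free of adhering tissue in cold Krebs medium gassed with 2.5% oxygen for fetuses and 12.5% for newborns. Birth, developmental age, mode of delivery and medium therefore cannot be told apart. The labels give no gestational age for the newborns. No strain, sex, genetic change or number of animals per array is given in the labels, and for newborn aorta on chip A the title counts 3 hours from coitum where the description names a newborn. Each state was hybridised once to each chip (15 arrays), so no state had replicates and a ratio of 2 states compared 2 arrays.

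Endothelium is the single cell layer that lines every vessel. Its cells hold together through VE-cadherin (Cdh5) and PECAM-1 (Pecam1), take in growth signals through the VEGF receptors (Kdr, Flt1) and the angiopoietin receptor system (Tek, Tie1), and keep blood fluid through thrombomodulin (Thbd), while von Willebrand factor (Vwf) and P-selectin (Selp) lie ready in storage granules for release on activation. In the ductus the endothelium lies over the muscle that contracts at birth, and it takes part in the later sealing of the lumen. These genes are used as markers of the cell type, and in a whole vessel wall fewer endothelial cells and less RNA per cell cannot be told apart.

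The region before the gene start is shown for Tie1, a member that was measured in every state, and for Kdr, whose probe set did not exceed the floor in any state. Endothelial genes are known to carry sites for ETS factors. Of the forms of the ETS core, GGAAG alone was searched here. Capitals mark this core on either strand in the part of the RefSeq window (250 bases before to 50 bases after the start, build GRCr8) that lies upstream of the annotated gene.
Tie1, chr5:137305048-137305231, minus strand: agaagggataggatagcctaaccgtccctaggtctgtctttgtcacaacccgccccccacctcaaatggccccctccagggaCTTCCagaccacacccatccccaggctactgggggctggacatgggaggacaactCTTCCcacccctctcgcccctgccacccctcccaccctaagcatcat
Kdr, chr14:32571813-32572030, plus strand: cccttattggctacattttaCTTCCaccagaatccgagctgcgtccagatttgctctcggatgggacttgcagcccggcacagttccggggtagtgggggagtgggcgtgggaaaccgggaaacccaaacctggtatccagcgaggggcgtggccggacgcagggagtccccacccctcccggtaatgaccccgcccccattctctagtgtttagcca
The Tie1 stretch of 184 bases held 2 copies of the GGAAG core, and the Kdr stretch of 218 bases held 1. Of all 33469 windows, 51.53% held at least 1 such core within 184 bases and 57.86% within 218 bases, so the core was common everywhere. The KLF core CACCC, searched on both strands, had 4 matches in Tie1, against 39.04% of windows with any, and 1 in Kdr, against 44.67%. The GATA core GATAA, likewise on both strands, had 0 matches in both, while 18.8% and 21.35% of windows held it. Matches of different motifs shared 0 bases in either stretch. These matches describe letters and are not evidence of binding.

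The deposited values were signal intensities without a log. A signal under the pooled median of its chip (149.8, 241.7 and 243.0 for A, B and C) was set to that floor, which makes a fold with 1 side there a lower bound, written "at least". Each gene was represented by its brightest probe set, and levels of different genes were not ranked against each other. Of the 24 probe sets, 14 were above the floor in all 5 states, 7 in 1 to 4 states and 3 in no state. At the brightest probe set 7 genes were above the floor in all states, Flt1 in 4, Vwf in 1 and Kdr in 0, so 7 of the 10 endothelial markers were measured throughout and Kdr in no state. For these 7 genes the highest state was newborn aorta in 4, newborn ductus in 2 and fetal aorta in 1, while the lowest was fetal aorta in 3, fetal ductus in 2 and oxygen ductus in 2. All arrays had been scaled to a similar mean, and between 46.85% and 51.84% of the probe sets exceeded the floor on each.

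**Figure D1:**
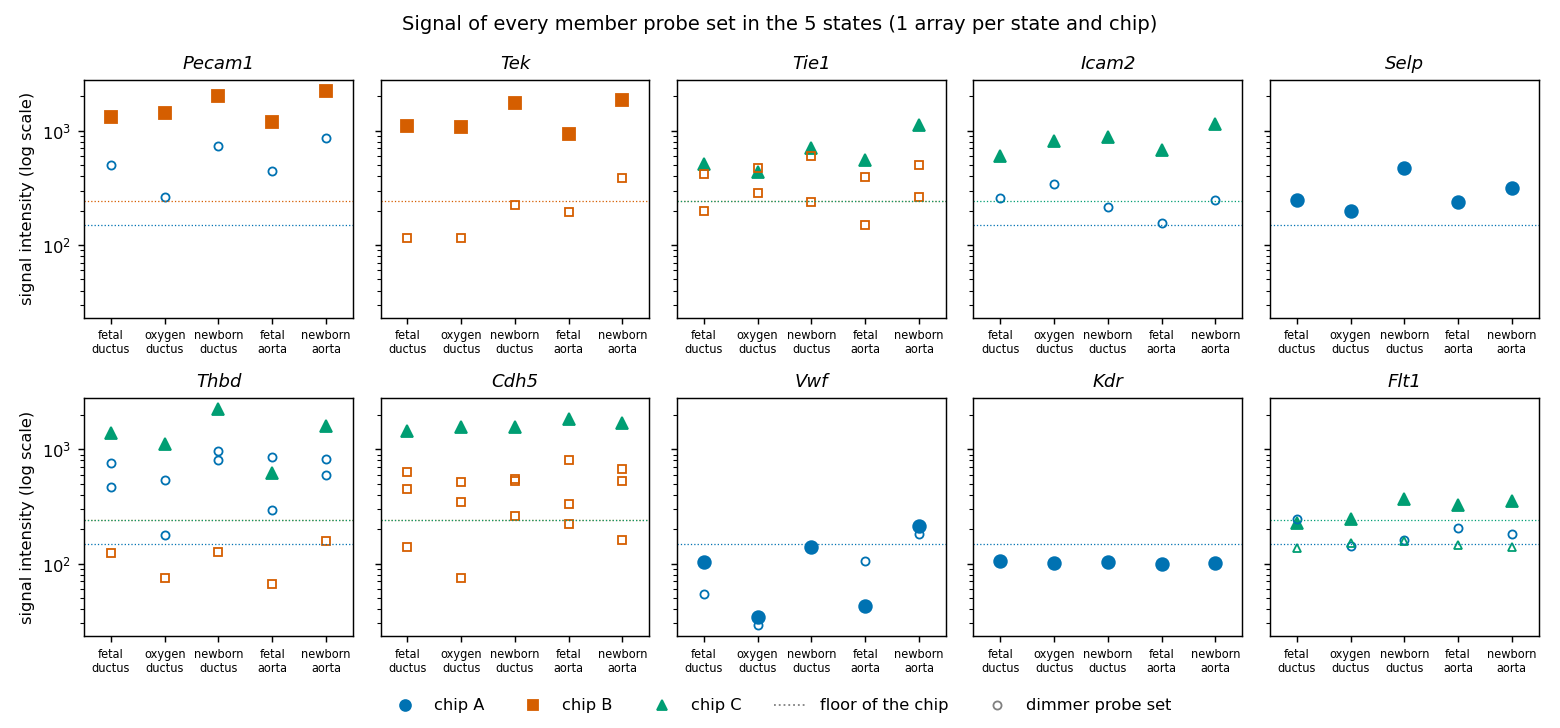
Signal intensity (log axis) of every member probe set in the 5 states, 1 point per array, with chips by colour and shape, filled symbols for the brightest probe set of a gene, open symbols for the dimmer ones and dotted lines for the floors. Pecam1 and Tek stand higher in both newborn vessels than in the fetal and oxygen states, Cdh5 is nearly level, and the Kdr probe set lies under the floor in every state, between 99.3 and 105.4.

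Members were higher in newborn than in fetal vessels at most brightest probe sets, in the ductus and in the aorta alike. In the ductus 5 of 8 compared members were at least 1.5-fold higher in the newborn (Pecam1, Tek, Selp, Thbd and, as a bound, Flt1) and 0 at least 1.5-fold lower. Across all genes compared, 7.56% were that much higher and 9.59% that much lower. The median log2 ratio of the members was 0.61, beside -0.05 over all genes. In the aorta 5 of 9 reached 1.5-fold higher (Pecam1, Tek, Tie1, Icam2 and Thbd) and 0 lower, while 7.57% of all genes did so upward and 11% downward, and the member median was 0.78 beside -0.05. The mean over all probe sets of a gene was also taken in place of the brightest. By that mean 1 member (Selp) was at least 1.5-fold higher in the newborn ductus and 4 were in the newborn aorta. It takes in probe sets at the floor on both sides, which draw a ratio toward 0, as for Tek in the ductus (0.33). For Flt1 (0.004) a probe set of opposite sign also entered. Pecam1 was just under the threshold in the ductus at 0.58, and Selp has 1 probe set only.

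The junction and adhesion molecules were led by Pecam1, which lies at the contacts between endothelial cells. On chip B its signal was 1323 in fetal ductus, 1445 in oxygen ductus, 2029.5 in newborn ductus, 1195 in fetal aorta and 2212 in newborn aorta. Both newborn vessels thus stood above the 3 fetal samples, with newborn over fetal folds of 1.53 in the ductus and 1.85 in the aorta. The chip A probe set of Pecam1 read 501, 266, 732, 449 and 866 in the same order of states. It gave like folds for birth (1.46 and 1.93) but set the oxygen ductus lowest, where chip B had it above the fetal ductus.

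Icam2, a ligand for leukocyte integrins that resting endothelium carries, was read on chip C at 605 in fetal ductus, 814 in oxygen ductus, 879 in newborn ductus, 674 in fetal aorta and 1154 in newborn aorta. Newborn aorta was 1.71-fold above fetal aorta, and newborn ductus 1.45-fold above fetal ductus. Its dimmer probe set on chip A gave 1.61-fold higher in the newborn aorta but a lower value in the newborn ductus (log2 ratio -0.27), so the ductus difference depended on the probe set.

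Selp, which captures leukocytes on activated endothelium and is also made by megakaryocytes, had 1 probe set, on chip A. Its signal was 249 in fetal ductus, 197.5 in oxygen ductus, 477 in newborn ductus, 239 in fetal aorta and 318 in newborn aorta. The newborn ductus was the highest state, 1.92-fold above the fetal ductus, and the newborn aorta was 1.33-fold above the fetal aorta.

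Cdh5, the cadherin of endothelial adherens junctions, stood apart from these. On chip C its signal was 1434 in fetal ductus, 1558 in oxygen ductus, 1550.5 in newborn ductus, 1830 in fetal aorta and 1696 in newborn aorta. The 5 states lay within a 1.28-fold range, newborn and fetal vessels overlapped, and the log2 ratio for birth was 0.11 in the ductus and -0.11 in the aorta. On chip B the brighter of the other Cdh5 probe sets was lower in both newborn vessels (log2 ratios of -0.22 in the ductus and -0.26 in the aorta), while another read 451, 343, 526, 333 and 523 in the order of states above and was 1.57-fold higher in the newborn aorta. The last one on chip B exceeded the floor in newborn ductus alone.

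Among the receptors, Tek (TIE2), the receptor for angiopoietins, was read on chip B at 1104 in fetal ductus, 1072 in oxygen ductus, 1745 in newborn ductus, 942 in fetal aorta and 1858 in newborn aorta. The newborn vessels were again separate from the fetal and oxygen samples, by 1.58-fold in the ductus and 1.97-fold in the aorta. The second Tek probe set of chip B was above its floor in newborn aorta alone, at 384, at least 1.59-fold over the fetal aorta.

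Tie1, the partner receptor of Tek without a firmly known ligand of its own, had a chip C signal of 515 in fetal ductus, 436 in oxygen ductus, 712 in newborn ductus, 552 in fetal aorta and 1116 in newborn aorta. Newborn aorta was the highest state, 2.02-fold above fetal aorta, and newborn ductus was 1.38-fold above fetal ductus. The brighter chip B probe set of Tie1 gave 1.42-fold in the ductus and 1.29-fold in the aorta, so the size in the aorta differed between chips. The dimmest Tie1 probe set, also on chip B, read 200.5, 287, 237, 150.2 and 264 in the order of states above. It was at the floor on both sides in the ductus pair and at least 1.09-fold higher in the newborn aorta.

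The VEGF receptors were dim. Kdr (VEGFR2), the main signalling receptor for VEGF-A, had 1 probe set, at 105.4 in fetal ductus, 100.8 in oxygen ductus, 103.5 in newborn ductus, 99.3 in fetal aorta and 101.8 in newborn aorta. All lie under the floor of 149.8, so no ratio is given, and the reading does not show that the gene was not expressed. Flt1 (VEGFR1), which binds VEGF tightly and limits its access to Kdr, was read on chip C at 224 in fetal ductus, 245 in oxygen ductus, 371 in newborn ductus, 323 in fetal aorta and 353 in newborn aorta. The newborn ductus was at least 1.53-fold above the fetal ductus, and the aortas differed by 1.09-fold. On chip A, however, Flt1 was 246 in fetal ductus and 162 in newborn ductus, 1.51-fold lower in the newborn. The direction for Flt1 in the ductus thus differed between chips, and the remaining probe set was under the floor in all states.

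Of the genes of haemostasis, Thbd encodes the thrombin receptor that starts the protein C anticoagulant pathway. Its chip C signal was 1395 in fetal ductus, 1102 in oxygen ductus, 2248 in newborn ductus, 615 in fetal aorta and 1603 in newborn aorta. Newborn ductus was the highest state and fetal aorta the lowest, and the newborn over fetal fold was 1.61 in the ductus and 2.61 in the aorta. One chip A probe set of Thbd read 467, 178, 812, 293 and 592 in that order of states, 1.74-fold and 2.02-fold higher in newborn ductus and aorta. The other chip A probe set read 764, 542, 968, 852 and 819.5, where newborn and fetal aorta were 1.04-fold apart, and the chip B probe set was under its floor throughout.

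Vwf, the carrier protein of coagulation factor VIII that tethers platelets, exceeded the chip A floor in newborn aorta alone. The brighter of its 2 probe sets read 103.7 in fetal ductus, 33.9 in oxygen ductus, 138.6 in newborn ductus, 42.5 in fetal aorta and 212.3 in newborn aorta. Newborn aorta was at least 1.42-fold above fetal aorta there and at least 1.21-fold at the dimmer probe set. Without the floor the log2 ratio of the brighter set was 2.32, a value that rests on signals in the lower range of the chip.

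Vessel and birth effects were fitted together with limma as an additive model on the 4 arrays of fetal and newborn ductus and aorta, for the 13810 probe sets that exceeded the floor on 2 or more of these arrays. A single residual degree of freedom (1) was left, so the contrast of vessel by stage served as the error. In that fit 16 member probe sets of 8 genes entered (Vwf and Kdr did not), 14 of them with a positive birth effect (Cdh5 on chip C at close to 0 among them) beside 47.44% of all probe sets, and 0 passed an adjusted p of 0.05, while 8 had an unadjusted p under 0.05. Over all probe sets 0.818% were called higher and 0.608% lower in the newborn, and 18.65% had an unadjusted p under 0.05. The median birth effect was 0.55 on the log2 scale over the member probe sets and -0.02 over all.

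The largest member effect was that of Thbd on chip C, 1.04 ± 0.22 (log2, SE) with an adjusted p of 0.074 by limma. The Thbd probe sets of chip A differed, at 0.91 ± 0.20 and 0.14 ± 0.21 (SE). Their limma adjusted p-values were 0.0712, the lowest of the members, and 0.773. For Tek the effect was 0.82 ± 0.22 with a limma adjusted p of 0.0891. For Pecam1 on chip B it was 0.75 ± 0.22 with a limma adjusted p of 0.109. Tie1 (0.74 ± 0.21 (SE)), Selp (0.68 ± 0.21 (SE)) and Icam2 (0.66 ± 0.18 (SE)) had limma adjusted p-values between 0.124 and 0.157. Flt1 on chip C was at 0.37 ± 0.20 (SE) and Cdh5 at 0.00 ± 0.18 (SE), with limma adjusted p-values of 0.380 and 0.998. Thbd on chip C passed with quantile normalization (limma adjusted p = 0.0378). With a prior variance that follows intensity, that probe set and Tek passed (the lower limma adjusted p was 0.0363). With a floor at the 25th percentile or no floor, 0 member probe sets passed, and the lowest limma adjusted p-values were 0.239 and 0.549.

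**Figure D2:**
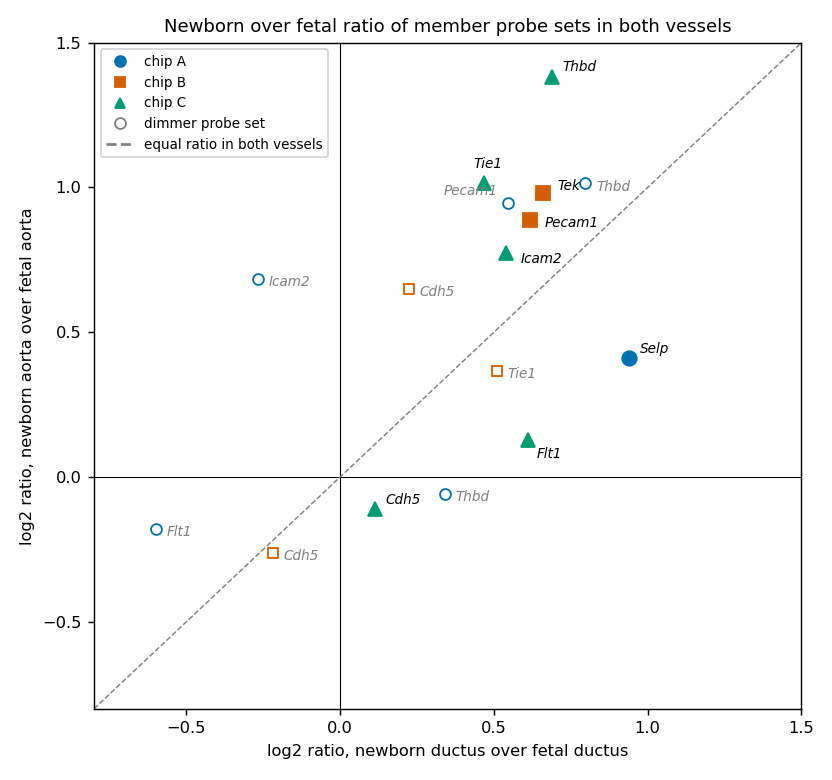
Log2 ratio of newborn over fetal signal in the ductus (x axis) and in the aorta (y axis) for the 16 member probe sets compared in both, 1 point per probe set, filled for the brightest of a gene; the dashed line marks equal ratios. Of these, 11 are positive in both vessels, 2 negative in both and 3 of opposite sign, and 10 lie above the line.

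The size of the newborn over fetal ratio was then set side by side for both vessels. Among the 8 members compared in both, 5 had the larger newborn over fetal ratio in the aorta (Pecam1, Tek, Tie1, Icam2 and Thbd) and 3 had it in the ductus (Selp, Flt1 and Cdh5). For Thbd the log2 ratio was 0.69 in the ductus and 1.38 in the aorta, and for Tie1 0.47 and 1.02. Selp went the other way, with 0.94 in the ductus and 0.41 in the aorta. Other probe sets had the larger ratio in the ductus, at 0.51 and 0.37 for Tie1 on chip B and 0.34 and -0.06 for one Thbd set of chip A. With the mean over probe sets the ratios were 0.46 and 0.58 for Thbd and 0.33 and 0.50 for Tie1. The fit put the standard deviation of a log2 ratio between 2 arrays at 0.29, 0.32 and 0.27 on chips A, B and C. These differences between vessels were not tested, since the same contrast is the error of the fit.

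Probe sets of the same gene did not always go one way. In the newborn against fetal ductus 3 of 6 genes with several compared probe sets had them all of one sign (Pecam1, Tie1 and Thbd), and in the newborn against fetal aorta 5 of 8 did (Pecam1, Tek, Tie1, Icam2 and Vwf). Cdh5 and Flt1 were mixed in both. By RefSeq order in GRCr8, Icam2 and Pecam1 are near neighbours with 2 protein-coding genes between them, and Tek and Tie1 share a chromosome with 214 between them.

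The ductus was set against the aorta at each stage, with arrays that also enter the birth ratios. In the fetus 1 of 8 members was at least 1.5-fold higher in the ductus and 0 lower, beside 4.2% and 5.1% of all genes, and the member median was -0.02 beside -0.02. That member was Thbd, 2.27-fold higher on chip C (1395 against 615) and 1.59-fold on one chip A probe set, with the other chip A probe set at a log2 ratio of -0.16. With the mean over its probe sets Thbd was at 0.42, under the threshold. Cdh5 (-0.35) and Flt1 (-0.41, a bound) had the most negative log2 ratios, followed by Icam2 at -0.16. Dimmer probe sets of these genes went the other way, with Icam2 on chip A 1.67-fold higher in the fetal ductus, one Cdh5 set of chip B at 0.44 and Flt1 on chip A at 0.26. The mean over probe sets was 0.29 for Icam2, -0.06 for Cdh5 and -0.05 for Flt1.

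In the newborn 1 of 9 members was at least 1.5-fold higher in the ductus (Selp, 477 against 318, a log2 ratio of 0.59) and 1 at least 1.5-fold lower (Tie1, 712 against 1116, 1.57-fold). Over all genes 6.16% and 5.98% were, so these shares were near the background. The member median was -0.12 beside -0.01. Of the other Tie1 probe sets, both on chip B, one was 1.18-fold higher in the newborn ductus and one at least 1.09-fold lower, and with the mean over its probe sets Tie1 was at -0.18. Selp sits at the threshold of 1.5-fold and was at 0.57 with quantile normalization. Pecam1, Tek and Icam2 had log2 ratios of -0.12, -0.09 and -0.39, and Thbd stayed above the aorta at 0.49.

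The vessel effect of the limma fit called 0 of the 16 member probe sets, with 2 at an unadjusted p under 0.05, beside 7.75% of all probe sets. Over all, 0.0145% were called higher and 0.0217% lower in the ductus. Thbd had the largest member effect, 0.84 ± 0.22 (log2, SE) on chip C with a limma adjusted p of 0.451, and 0.56 ± 0.20 (SE) on chip A with one of 0.544. Tie1 on chip C was at -0.37 and Selp at 0.32.

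The oxygen ductus was set against the fetal ductus to ask what oxygen does before delivery. At the brightest probe sets 0 of 8 members were 1.5-fold apart in either direction, beside 4.44% higher and 5.38% lower over all genes. The member median was -0.01 beside 0.04. Icam2 had the highest log2 ratio, 0.43 on chip C and 0.39 on chip A. Thbd was lower at all 3 measured probe sets, by log2 ratios of -0.34 on chip C and -0.50 and -1.40 on chip A. Tek was at -0.04 and Selp at -0.33. For Flt1 the fetal ductus was under the floor on chip C, so its ratio there (0.01) is only a bound.

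The oxygen ratios of the member probe sets differed between chips. The chips carry different probe sets and partly different genes, so chip and probe set cannot be told apart. Icam2 and Thbd each kept one sign on chips A and C. On chip A 5 of 6 compared member probe sets were lower in the oxygen ductus, 3 of them at least 1.5-fold (Thbd 2.63-fold, Pecam1 1.89-fold and Flt1 at least 1.64-fold), with a median log2 ratio of -0.60. On chips B and C together 6 of 11 were higher and 5 lower, 0 by 1.5-fold, with a median of 0.01. The oxygen array of chip A also leaned this way over all its probe sets, where 9.61% were at least 1.5-fold lower and 2.41% higher, beside 8.03% and 4.79% on chips B and C. Its part in the member ratios was not tested. Pecam1 was 1.89-fold lower on chip A and 1.09-fold higher on chip B for the same comparison.

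**Figure D3:**
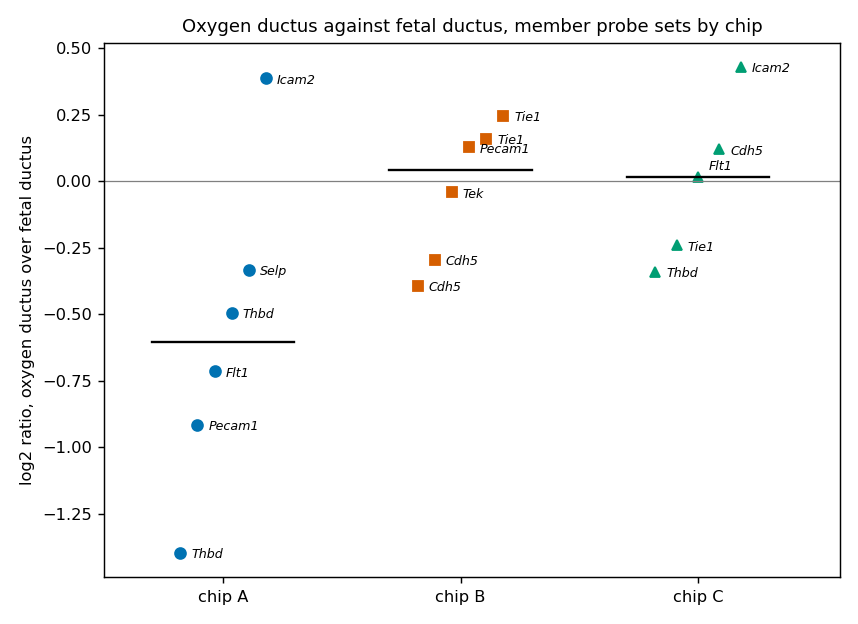
Log2 ratio of oxygen over fetal ductus for each compared member probe set, by chip, with the median of the chip as a bar. Chip A has 5 of 6 points under 0 and a median of -0.60, while the medians of chips B and C lie at 0.04 and 0.01.

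Against the oxygen ductus, 5 of 8 members were at least 1.5-fold higher in the newborn ductus (Tek 1.63-fold, Tie1 1.63-fold, Selp 2.42-fold, Thbd 2.04-fold and Flt1 1.51-fold) and 0 lower. Over all genes 10.5% were that much higher and 14.5% that much lower, and the member median was 0.65 beside -0.09. Pecam1 (0.49), Icam2 (0.11) and Cdh5 (-0.01) did not reach the threshold there. With the mean over probe sets, 3 members reached it (Pecam1 at 0.98, Selp at 1.27 and Thbd at 1.01), Tek (0.35), Tie1 (0.27) and Flt1 (0.24) did not, and the median was 0.31. Icam2 on chip A was 1.57-fold lower in the newborn than in the oxygen ductus. The newborn ductus array enters this ratio and the one against the fetal ductus, so they are not independent.

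The other endothelial genes were taken from fixed lists, read the same way. Across all genes, 7.56% were at least 1.5-fold higher and 9.59% lower in the newborn ductus, and 7.57% and 11% in the newborn aorta. Ligands and co-receptors of the VEGF and angiopoietin systems had lower medians in the newborn, -0.19 in the ductus (6 genes compared, 1 at least 1.5-fold higher and 0 lower) and -1.003 in the aorta (7 genes, 0 higher and 4 lower). Angpt2, the angiopoietin that opposes Tek signalling in many settings, was 1077 in fetal and 372 in newborn aorta, 2.90-fold lower, and 645 and 433 in the ductus. Vegfc, a ligand for lymphatic growth, was 566 in fetal aorta and under the floor in newborn aorta, at least 2.34-fold lower. Vegfd, a related ligand, was 1.57-fold higher in newborn than in fetal ductus and 2.00-fold lower in newborn than in fetal aorta. In the fetus this list was lower in the ductus than in the aorta (median -0.74, 4 of 7 at least 1.5-fold lower). The fetal aorta array enters this ratio and the newborn over fetal ratio of the aorta, so they are not independent.

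Junction proteins had medians of 0.12 in the ductus (1 of 13 reached 1.5-fold higher and 1 lower) and 0.28 in the aorta (2 higher, 0 lower) for birth. Gja1, a gap junction connexin, was 1.58-fold higher in newborn ductus and 2.40-fold in newborn aorta, while Gja5, the connexin typical of arterial endothelium, was 1.64-fold lower in the newborn ductus. Cldn5, the main tight junction claudin of endothelium, was 1.95-fold higher in newborn aorta. It was also 1.96-fold higher in oxygen than in fetal ductus (2409 against 1229), a comparison in which 0 members reached 1.5-fold at the brightest probe set. There 1 of 12 compared junction genes was at least 1.5-fold higher and 1 lower (Ctnnd1, 1.54-fold). Over all genes 4.44% were that much higher and 5.38% that much lower.

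Other adhesion and surface proteins had positive log2 ratios in newborn against fetal ductus for 9 of 9 compared genes, from 0.01 to 1.05 with a median of 0.15, beside 45.2% positive over all genes, and 3 of the 9 were at least 1.5-fold higher. Mcam (CD146), also made by smooth muscle, was 2.08-fold higher, the TGF-beta co-receptor Eng 1.88-fold and Podxl 1.65-fold. In the aorta the median was -0.02, with 1 gene at least 1.5-fold higher and 1 lower. Cd93 was 1.54-fold lower in the newborn, and S1pr1, a sphingosine 1-phosphate receptor singled out after its values were seen, was 2.25-fold higher. Haemostasis genes had medians of 0.29 in the ductus and 0.52 in the aorta (6 genes each), with the protein C receptor gene Procr 1.79-fold higher in newborn ductus and the prostacyclin synthase gene Ptgis 2.00-fold in newborn aorta.

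Vasoactive and caveolar genes had a median of 0.58 in the ductus, where 4 of 9 were at least 1.5-fold higher and 0 lower, and of 0.19 in the aorta, where 3 were higher and 1 lower. Cav2 (caveolin-2) was 1.93-fold higher in newborn ductus and 1.95-fold in newborn aorta, Ace (angiotensin-converting enzyme) 1.92-fold and 1.85-fold. Edn1, the precursor of the constrictor endothelin-1, was 1.63-fold higher in newborn ductus and 1.54-fold in newborn aorta. Nos3, the endothelial nitric oxide synthase, was 1.58-fold lower in newborn aorta, against the list median there. In the ductus it was 1.32-fold higher in the newborn than in the fetus. Transcription factors had medians of 0.21 and 0.03, with 5 of 16 at least 1.5-fold higher and 1 lower (Epas1, 1.56-fold) in the ductus. In the aorta 1 of 16 was higher and 1 lower (Meox2, 3.11-fold), and 8 ratios were positive and 8 negative. The flow-responsive factor Klf2 was 480 in fetal, 314.5 in oxygen and 1336 in newborn ductus, 2.78-fold higher in newborn than in fetal ductus, and Klf4 was 2.59-fold higher.

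In the limma fit 0 genes of these 6 lists passed for birth or for vessel. Their lowest limma adjusted p for birth was 0.0586, among the vasoactive and caveolar genes, and unadjusted p-values under 0.05 were held by 2 of 6, 2 of 13, 3 of 9, 2 of 6, 3 of 9 and 5 of 16 genes in the order of the lists above, beside 6 of 8 members. For vessel they were held by 0, 0, 1, 2, 1 and 1 genes of the same lists, beside 1 member. Over all probe sets in the limma fit, 18.65% had an unadjusted p under 0.05 for birth and 7.75% for vessel.

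**Figure D4:**
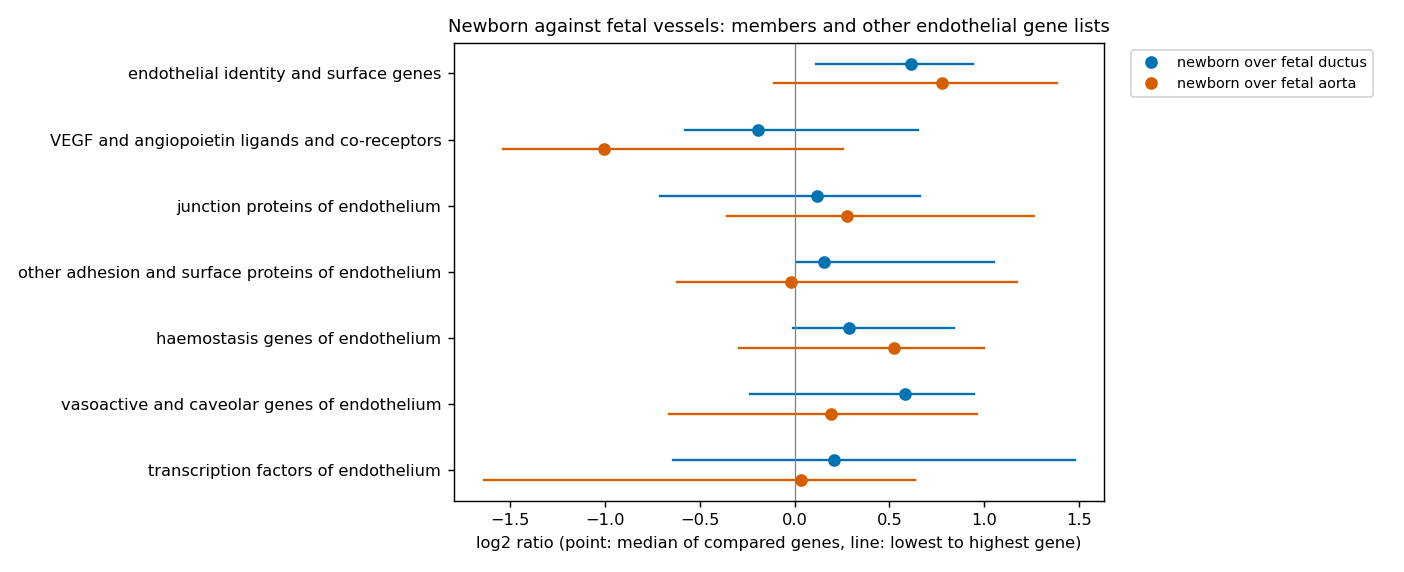
Log2 ratio of newborn over fetal signal for the members and 6 other endothelial gene lists in ductus and aorta, as the median (point) and the range from the lowest to the highest compared gene (line). The members have medians of 0.61 and 0.78, and the VEGF and angiopoietin list has the lowest, -0.19 and -1.003.

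Levels of markers of other cell types also differed between the samples. Sums over a marker list are of signals as deposited, without the floor, and serve only to set the same list side by side across states. Platelet and megakaryocyte markers, of which 3 of 7 were on the chips, had a summed signal of 1154 in fetal ductus, 2130.2 in oxygen ductus, 3009 in newborn ductus, 2104 in fetal aorta and 3565 in newborn aorta. Pf4 (platelet factor 4) had a birth effect of 1.33 ± 0.21 (log2, SE) with a limma adjusted p of 0.0354, while Itga2b had log2 ratios of 0.14 in the ductus and -0.04 in the aorta, and Gp9 was under the floor in fetal ductus. Platelets also carry Selp and Pecam1. The part of these markers in the member ratios was not tested.

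Smooth muscle markers (5 of 7 on the chips, all above the floor) summed to 46615 in fetal and 68639 in newborn ductus, and to 32350.1 and 45332 in the aortas, and 1 of the 5, Des (desmin), passed for birth at 2.06 ± 0.22 (log2, SE) with a limma adjusted p of 0.0117. Erythroid markers (6 of 8 on the chips) summed to 36486 and 47512 in the ductus and to 55294 and 42717 in the aorta. The embryonic globins Hbe1 and Hbz were lower after birth, at -5.21 ± 0.27 and -2.31 ± 0.31 (log2, SE) with limma adjusted p-values of 0.0013 and 0.0117. Alas2, the haem synthesis enzyme of red cells, was 3.52-fold higher in newborn than in fetal ductus and 1.57-fold in the aorta. Ahsp, another erythroid marker, was 2.21-fold higher in the newborn ductus but 1.94-fold lower in the newborn aorta. In fetal and newborn aorta Hbe1 read 17355 and 328, and Hbb 28808 and 32647. Fat markers summed to 681 and 1259 in the ductus and to 814 and 9433 in the aorta, where 6 of 7 exceeded the floor in the newborn against 2 in the fetus. Heart muscle markers (7 of 7) summed to 23037 in fetal, 18511 in oxygen and 7062 in newborn ductus, and to 9115 and 12217 in the aortas. Leukocyte markers (9 of 9) ranged from 3462 in fetal ductus to 5718 in fetal aorta. Lymphatic endothelial markers (3 of 5, with Prox1 and Flt4 unread) summed to 2148 and 4376 in the fetal and newborn ductus. In the aortas they summed to 3085 and 2974. The difference in the ductus lay mostly in Ccl21 (1378 and 3470.5), with Lyve1 at 448 and 583 and Pdpn at 322 in both. Genes listed as endocardial markers (4 of 4 on the chips) summed to 5741 and 4679 in the ductus and to 5322 and 4456 in the aortas. Most of each sum came from Cdh11, at 4795 and 3896.5 in the ductus and 4734 and 3937 in the aortas. Each sum thus mainly reads that gene and not endocardium as such. In newborn against fetal ductus Gata4 was 2.97-fold lower, Npr3 1.16-fold lower and Nfatc1 at least 1.69-fold higher. Across the 5 states fibroblast markers (5 of 5) summed to between 47031.5 and 63398, mesothelial markers (3 of 4) to between 790.4 and 2121 and nerve markers (4 of 5) to between 403 and 1474.5. The members themselves summed to 7058 and 10255 in the ductus, and to 6512 and 10624 in the aorta. None of these sums was tested as a contributor to the member ratios.

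The mean profile of the 7 members above the floor in all states, as log2 signal centred on each gene, was -0.20 in fetal, -0.24 in oxygen and 0.37 in newborn ductus, and -0.35 and 0.42 in fetal and newborn aorta. Among 6246 genes above the floor in all 5 states, the 5 nearest profiles by root mean square distance over these 5 values were those of Ehd2 (0.0424), Pla2g12a (0.0441), Gpx3 (0.0551), Pold4 (0.0623) and Fam180a (0.0684). Pecam1 (0.0678) and Tek (0.0754) lay about as near to the mean that they enter, and Thbd (0.404) and Cdh5 (0.352) farthest. Ehd2, a protein of caveolae, read 4003 in fetal, 3771 in oxygen and 5898 in newborn ductus, and 3693 and 5753 in the aortas. With 5 values per profile and so many genes, such nearness is a description.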

How the data were processed

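Affymetrix chips A, B and C were hybridised once per state, and 4 of the 5 chip A arrays were processed with MAS5, per the submitters' processing notes. The software for the other arrays is not given in the sources used here. The authors deposited linear signal intensity values, and their mean after trimming 2% at each end was 500.3 to 500.9 on every array. Of 26202 probe sets, 18178 had 1 gene symbol, 391 several and 7633 none, by the platform annotation, and all 10 members were found in the RefSeq gene table. Floors, brightest probe sets and the limma model (limma 3.58.1, R 4.3.3, Benjamini-Hochberg over all probe sets of the 3 chips) were as given above, and ratios were computed with Python 3.11.15, numpy 2.4.6 and pandas 2.3.3. The number of arrays limits the precision.

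The members and gene lists were chosen with earlier results of these data known. All member probe sets were named. From each list up to 3 genes with the largest ratio between newborn and fetal ductus, and up to 2 in the direction of the median in other pairs, were named, with the 5 genes nearest in profile. Some genes, among them S1pr1, Nos3, Ctnnd1, Epas1 and Meox2, were named outside this rule, for a pair where they went against the list median. The calculations were repeated in 5 other ways: a floor at the 25th percentile, no floor, quantile normalization, the mean of probe sets, and an intensity trend in limma. Chips B and C alone were added after the data were seen.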

Additional observations from a re-analysis of the deposited data

Results flagged for a closer look

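Pecam1, Tek and Cdh5 had ratios of opposite sign in the compared groups, and in no case was the difference tested. For Pecam1 the log2 ratio of ductus over aorta was 0.15 in the fetus and -0.12 in the newborn, a difference of -0.271. For Tek it was 0.23 and -0.09, a difference of -0.319. For Cdh5 the log2 ratio of newborn over fetal was 0.11 in the ductus and -0.11 in the aorta, a difference of 0.223. With the mean of probe sets both Cdh5 ratios were positive, 0.06 and 0.07. Each difference involves 4 arrays, and each single ratio was smaller than the standard deviation of a log2 ratio on its chip.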

How the results depend on the processing

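With 1 array per state and chip there was no replicate to leave out, and no paired analysis was possible because the labels carry no replicate numbers. Of 264 member values under the alternatives, 244 moved by less than 0.324 (log2) or kept their side of the limma threshold, 3 passed a limma threshold they had missed (Thbd under both quantile normalization and the intensity trend, and Tek under the latter, all for birth) and 17 moved further: Vwf in newborn against fetal aorta (2.32 without the floor and with the lower one) and 15 ratios with the mean of probe sets. A lower floor or none cannot change a ratio with both sides above the main floor, so agreement under these settings was largely fixed in advance. With the mean of probe sets 15 values moved and 35 did not. That mean includes probe sets at the floor, and it turned the sign of 11 of 50 member ratios. None of these 11 was past 1.5-fold at the brightest probe set. The same mean took 10 ratios under 1.5-fold. Examples are Icam2 in fetal ductus against aorta (0.29 in place of -0.16), Pecam1 in oxygen against fetal ductus (-0.39 in place of 0.13) and Flt1 in newborn against fetal ductus (0.004 in place of 0.61). With a floor at the 25th percentile, and likewise with no floor, members at least 1.5-fold higher in fetal ductus than fetal aorta numbered 2, those lower in newborn ductus than newborn aorta 2, and those lower in oxygen than fetal ductus 1, with Vwf as the added gene each time, newly compared in the fetal pairs and moved from -0.50 to -0.61 in the newborn pair. Limma called 0 probe sets for birth and 0 for vessel under both, with 2718 and 2321 (birth) and 1385 and 1561 (vessel) at an unadjusted p under 0.05, against 197 and 5 called in the main setting. Quantile normalization left 0 members higher in newborn ductus than newborn aorta (Selp at 0.57) and called 17 probe sets for vessel. The intensity trend called 527 for birth and 47 for vessel. With the mean of probe sets, 0 members were higher in fetal ductus than fetal aorta, 0 lower in newborn ductus than newborn aorta, 1 higher in newborn than fetal ductus, and 3 higher in newborn than oxygen ductus, with a median of 0.311. On chips B and C alone, chosen after seeing the data, 0 members were higher in newborn ductus than newborn aorta, since Selp is on chip A. The causes of the other shifts were not tested. Kdr, Vwf and the dim probe sets of Flt1, Tek and Thbd gave signals near or under the floor, so ratios for them are bounds or could not be had.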
